A study of Mus musculus with 4 samples.

Results

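The genes described are 9 that encode intermediate filament proteins of the cytoplasm and the nucleus, Vim, Des, Nes, Krt8, Krt18, Krt19, Lmna, Lmnb1 and Lmnb2, taken by symbol out of 36846 symbols in the deposited table, where they have 16 RefSeq transcripts. They were measured in mouse embryonic fibroblasts (MEFs) that lacked Dnmt3l (Dnmt3l-KO, 2 libraries) or were wild type (WT, 2 libraries). Both genotypes were C57BL/6 cell lines at passage 4 from embryos of day 13.5 to 14.5, bred by intercrossing Dnmt3l+/- mice, and were grown in DMEM with 10% FBS. The product of Dnmt3l assists the enzymes that set new DNA methylation and has no catalytic activity of its own, and the study asked which fibroblast genes go with the better development of embryos cloned from knockout cells. Libraries were made from RNA freed of ribosomal RNA. The labels do not state whether libraries of the same genotype derive from different embryos. The p-values hence reflect only the spread among these 4 libraries, which may be technical.

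Intermediate filaments are flexible protein polymers that give cells and nuclei their mechanical strength. In the cytoplasm their composition follows the cell type, with vimentin in mesenchymal cells, desmin in muscle, nestin in progenitor cells and paired type I and type II keratins in epithelia. The nuclear lamins form a meshwork under the inner nuclear membrane, to which heterochromatin is anchored. A-type lamins all come from Lmna, and B-type lamins come from Lmnb1 and Lmnb2.

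Total estimated counts were 51465395 and 40681328 in the Dnmt3l-KO libraries and 47776612 and 41049869 in the WT libraries. The knocked-out gene itself had 0 counts in both Dnmt3l-KO libraries and 6 counts and 1 count in the WT libraries, too few to check the labels. All 12 fibroblast markers, collagen genes and Pdgfra among them, were detected, with a summed level of 2194 and 3475 FPKM in Dnmt3l-KO and 2493 and 2178 FPKM in WT. Of 12 epithelial markers 3 were high enough to test, and their summed level over all 12 was 1.64 and 1.21 FPKM in Dnmt3l-KO and 1.76 and 1.34 FPKM in WT. Esrp1 and Ovol1, regulators of the epithelial state, had 0 counts in all 4 libraries. In such bulk samples fewer cells of a type and less RNA per cell cannot be told apart.

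Vim was the most abundant member in every library and ranked 18th of all symbols by mean FPKM (fragments scaled by transcript length and library depth, the authors' measure, by which levels of different genes can be compared). The 9 genes together took 0.553% and 0.557% of all counts in Dnmt3l-KO and 0.492% and 0.552% in WT, and Vim alone made up 81.8% and 80.4% of that in Dnmt3l-KO and 81.1% and 79.6% in WT. Lmna came next, at rank 208, with a mean over all 4 libraries of 301.3 FPKM against 2165 FPKM for Vim. Krt19 followed at 25.8 FPKM, then Nes at 11.8, Lmnb1 at 11.4, Des at 5.73, Lmnb2 at 4.96, Krt18 at 3.50 and Krt8 at 0.0848 FPKM. The ranges over the 4 libraries did not separate Nes from Lmnb1, Des from Lmnb2 or Lmnb2 from Krt18, while every other pair of neighbours in this order was apart in all 4 libraries.

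**Figure D1:**
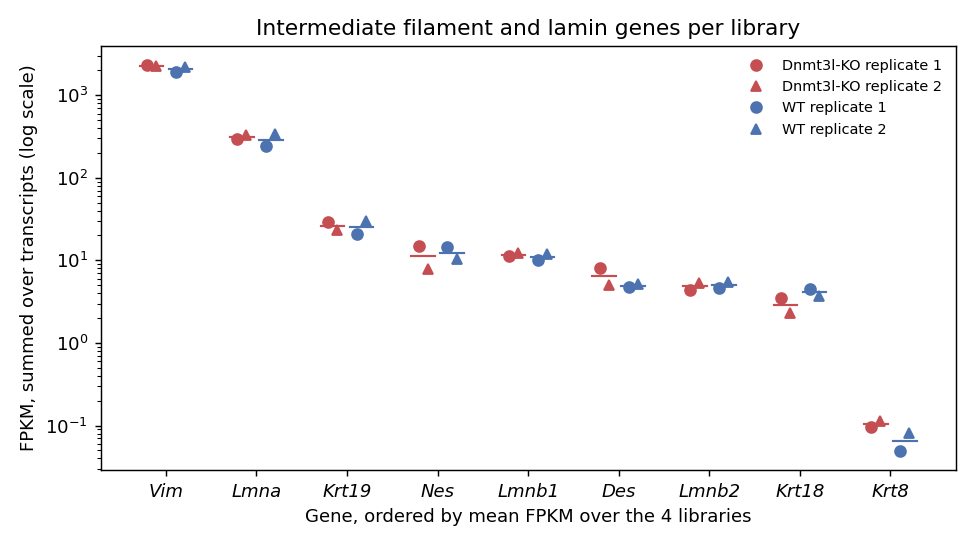
FPKM of each gene (log axis) in the 2 Dnmt3l-KO libraries (red, left) and the 2 WT libraries (blue, right), with circles for replicate 1, triangles for replicate 2 and bars for the group means. Vim lies at 1894 to 2306 FPKM and Krt8 at 0.0492 to 0.114 FPKM, and the order of the genes is nearly the same in each library.

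The lower end of this order holds a pair of neighbouring genes. Krt8 and Krt18 encode the type II and type I keratins that pair in simple epithelia, and they lie 23873 bases apart on chromosome 15. The 250 bases before the annotated starts of Vim, Krt18 and Krt8 are shown because these genes mark the top of the order and the uneven keratin pair. CpG dinucleotides, the sites that DNA methyltransferases act on, are in capitals, and the sequences are from RefSeq (GRCm38), which held a window for 7 of the 9 genes.
Vim, chr2:13574061-13574310, plus strand: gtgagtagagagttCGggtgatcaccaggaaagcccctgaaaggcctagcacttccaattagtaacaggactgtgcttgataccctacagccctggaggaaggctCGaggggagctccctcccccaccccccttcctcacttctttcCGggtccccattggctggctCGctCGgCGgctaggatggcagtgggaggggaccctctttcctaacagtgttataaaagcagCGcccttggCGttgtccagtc
Krt18, chr15:102027966-102028215, plus strand: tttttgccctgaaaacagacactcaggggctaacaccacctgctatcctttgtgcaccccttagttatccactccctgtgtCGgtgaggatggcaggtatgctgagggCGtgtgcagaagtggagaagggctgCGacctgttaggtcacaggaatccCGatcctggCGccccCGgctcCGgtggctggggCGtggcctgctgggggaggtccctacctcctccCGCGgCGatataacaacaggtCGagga
Krt8, chr15:102004343-102004592, minus strand: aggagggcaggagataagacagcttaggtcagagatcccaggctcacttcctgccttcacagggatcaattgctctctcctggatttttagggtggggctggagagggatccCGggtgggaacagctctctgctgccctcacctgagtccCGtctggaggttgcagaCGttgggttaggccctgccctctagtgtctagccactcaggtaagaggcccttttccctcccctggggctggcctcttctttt

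The Krt18 window holds 12 CpG, the Vim window 8 and the Krt8 window 3. Of 32851 such windows in the RefSeq table, 33.5% hold at least 12 CpG, 43.0% at least 8 and 71.0% at least 3, with a median of 6. These counts describe the sequence, and methylation was not measured in this table.

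None of the 8 genes that could be tested passed the test for a difference between the genotypes. In edgeR's quasi-likelihood test over 14760 genes 0 of the 8 passed an adjusted p of 0.05, where 0.0203% of all genes did (0.0136% higher and 0.00678% lower in Dnmt3l-KO), and 0 of the 8 had an unadjusted p under 0.05, where 4.15% of all genes did. DESeq2's Wald test, which called 0.166% of all genes, and limma-voom also called 0 of them. The median log2 fold change of the 8 was 0.0147, with 5 positive and 3 negative values, and that of all genes tested was 0.0062, with 7575 positive and 7185 negative values. The CPM ranges of the genotypes (counts scaled by library depth with TMM factors, used between libraries) did not overlap in 2 of the 8, Vim and Krt18, against 32.7% of all genes (16.2% higher and 16.5% lower in Dnmt3l-KO). Krt8 was too low for edgeR's expression filter.

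**Figure D2:**
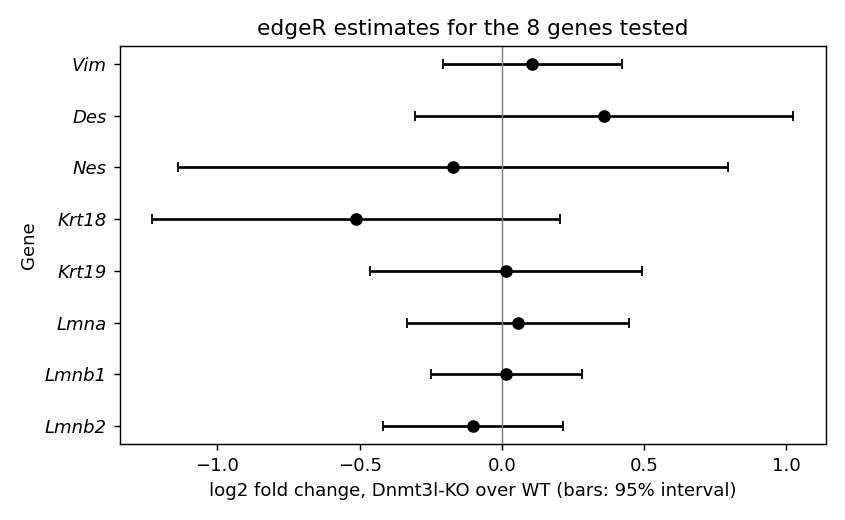
Log2 fold change of the 8 tested genes, Dnmt3l-KO over WT, with 95% intervals from edgeR. Every interval spans 0. The narrowest belongs to Lmnb1 (-0.25 to 0.28) and the widest to Nes (-1.14 to 0.79).

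Vim (chromosome 2, 13574311 to 13582826, GRCm38), which encodes the main filament protein of fibroblasts, had 4665 and 4354 CPM in Dnmt3l-KO and 4043 and 4324 CPM in WT. Both Dnmt3l-KO libraries lay above both WT libraries, the nearer pair by a small margin. The log2 fold change was 0.11 ± 0.12 (SE, n = 2 libraries each, edgeR, adjusted p = 0.999). The 95% interval of the fold was 0.866 to 1.34. Of the 12 fibroblast markers, all tested and 0 passing, 12 had a positive fold change, with a median of 0.21 on the log2 scale. The Dnmt3l-KO range lay wholly above the WT range in 1 of them, where 16.2% of all genes did so. Their summed level was 15132 and 21368 CPM in Dnmt3l-KO and 17296 and 13770 CPM in WT. In this sum Dnmt3l-KO replicate 1 lay below WT replicate 1, unlike in Vim. Col1a1 made up 3205 and 5889 CPM of it in Dnmt3l-KO and 4318 and 3403 CPM in WT, also with Dnmt3l-KO replicate 1 below WT replicate 1. Fn1, the marker without overlap, made up 7823 and 7863 CPM in Dnmt3l-KO and 7313 and 5568 CPM in WT. As in Vim, both of its Dnmt3l-KO libraries lay above both WT libraries. The part of these markers in the level of Vim was not tested.

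Des (chromosome 1, 75360292 to 75368579), the filament gene of muscle, had 27.1 and 16.2 CPM in Dnmt3l-KO and 16.9 and 16.9 CPM in WT. The Dnmt3l-KO replicate 1 library stood above the other 3, which lay close together, so the groups overlapped. The log2 fold change was 0.36 ± 0.26 (SE from edgeR, adjusted p = 0.999), and without Dnmt3l-KO replicate 1 it was -0.06. The fold interval was 0.809 to 2.04. Endothelial markers, 8 genes with none at 0 and 4 tested, had a summed level of 20.6 and 12.8 CPM in Dnmt3l-KO and 10.1 and 13.2 CPM in WT. Kdr made up 17.5 and 4.81 CPM of this sum in Dnmt3l-KO and 6.71 and 8.36 CPM in WT. Kdr and Emcn were highest in Dnmt3l-KO replicate 1, whereas Tek was highest in Dnmt3l-KO replicate 2 (0.741 and 1.08 CPM in Dnmt3l-KO). The part of endothelial cells in the level of Des was not tested.

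Nes (chromosome 3, 87971093 to 87980451) encodes nestin, which assembles with vimentin or desmin in progenitor cells. It had 100.1 and 50.9 CPM in Dnmt3l-KO and 102.5 and 67.6 CPM in WT. In each genotype replicate 1 was the higher library, and the groups overlapped almost entirely. The log2 difference of replicate 2 minus replicate 1 was -0.98 in Dnmt3l-KO and -0.60 in WT, against a median absolute difference over all tested genes of 0.23 in Dnmt3l-KO and 0.13 in WT. The log2 fold change between genotypes was -0.17 ± 0.37 (SE from edgeR, adjusted p = 0.999), and it turned positive when Dnmt3l-KO replicate 2 (0.23) or WT replicate 1 (0.16) was left out.

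Summed levels of muscle markers were higher in the same library of each genotype as Nes. The summed level of 12 skeletal and cardiac muscle markers was 237 and 119 CPM in Dnmt3l-KO and 266 and 163 CPM in WT, with Pax7, the gene of muscle stem cells, at 0 in all libraries and 4 of the 12 high enough to test. Acta1, the skeletal muscle actin, made up 234 and 118 CPM of it in Dnmt3l-KO and 263 and 161 CPM in WT. For 8 smooth muscle and pericyte markers, all tested, it was 8194 and 5317 CPM in Dnmt3l-KO and 7371 and 5949 CPM in WT. Acta2 made up 5319 and 3422 CPM of this sum in Dnmt3l-KO and 4713 and 3747 CPM in WT, and Cnn1 had the same order. Cspg4 (369 and 301 CPM in Dnmt3l-KO, 269 and 286 CPM in WT) had the order of Nes in Dnmt3l-KO but not in WT. So did Abcc9 (0.721 and 0.622 CPM in Dnmt3l-KO, 1.23 and 1.94 CPM in WT). For 10 neural and neural crest markers, with Pax6 at 0, the summed level was 59.6 and 79.9 CPM in Dnmt3l-KO and 64.2 and 61.2 CPM in WT. This is the order of Nes in WT but not in Dnmt3l-KO. Tubb3 made up 35.3 and 47.3 CPM of this sum in Dnmt3l-KO and 46.4 and 35.7 CPM in WT. Sox10 (1.44 and 0.837 CPM in Dnmt3l-KO, 0.976 and 0.599 CPM in WT) and Elavl4 were higher in replicate 1 of each genotype, as Nes was. Map2 was higher in replicate 2 of each genotype. The part of these cell types in the levels of Nes and Des was not tested.

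**Figure D3:**
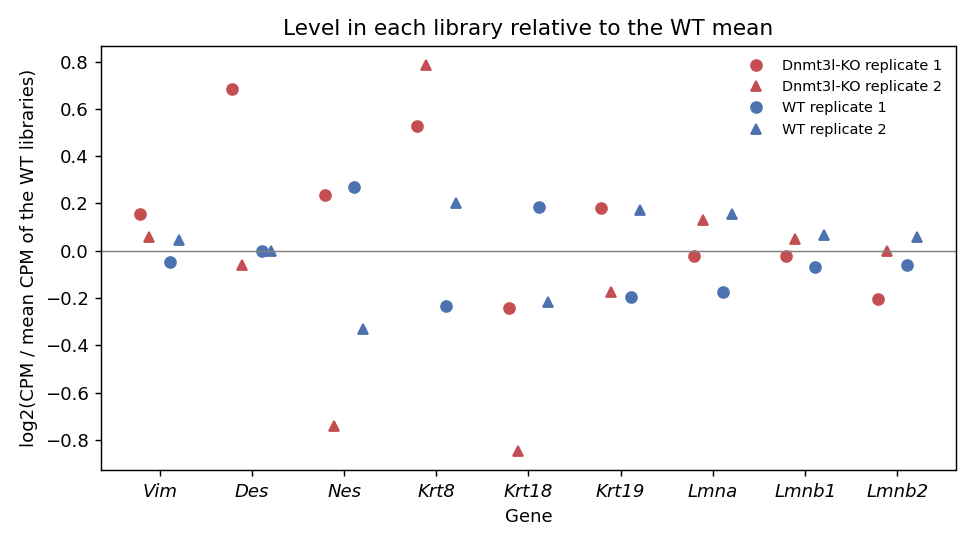
Log2 of the CPM in each library over the mean CPM of the WT libraries, for Dnmt3l-KO (red, left) and WT (blue, right), with circles for replicate 1 and triangles for replicate 2. Nes has a circle above a triangle in both genotypes, Des has a single high library (Dnmt3l-KO replicate 1), and Lmnb1 and Lmnb2 stay near 0.

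Krt8 (chromosome 15, 101996711 to 102004342) had 9 and 9 counts in Dnmt3l-KO and 5 and 6 counts in WT. The exact 95% Poisson intervals, which cover counting error only, were 4.12 to 17.1 counts for each Dnmt3l-KO library, and 1.62 to 11.7 and 2.202 to 13.06 counts for the WT libraries. The intervals of all 4 libraries overlap, and DESeq2's Wald test, which kept the gene, gave a log2 fold change of 0.66 with an unadjusted p of 0.613. A pseudogene, Krt8-ps, is 98.6% identical to Krt8 over 941 bases and was not analysed here, so its reads may be among these counts; Krt18 and Lmnb2 have more distant pseudogene copies.

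Krt18 (chromosome 15, 102028216 to 102032026) had 5.45 and 3.59 CPM in Dnmt3l-KO and 7.34 and 5.56 CPM in WT. Both Dnmt3l-KO libraries lay below both WT libraries, and replicate 1 was again the higher library of each genotype. Its log2 fold change of -0.51 ± 0.28 (SE from edgeR, adjusted p = 0.999) was the largest in size among the tested members, with an unadjusted p of 0.127 and a fold interval of 0.426 to 1.15. Without Dnmt3l-KO replicate 1 it was -0.85, without Dnmt3l-KO replicate 2 it was -0.25 and without WT replicate 1 it was -0.30. Per length, Krt18 exceeded its partner Krt8 by 36.5 and 20.3 times in FPKM in Dnmt3l-KO and by 91.1 and 46.0 times in WT, ratios that rest on the few Krt8 counts.

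Most Krt18 counts were assigned to the curated transcript, with 245 and 108 counts in Dnmt3l-KO and 332 and 221 counts in WT. A predicted variant, X2, had 24 and 38 counts in Dnmt3l-KO and 13 and 10 counts in WT, the opposite order of the groups. In a fit over 39633 transcripts the log2 fold changes were -0.72 ± 0.45 for the curated transcript and 1.42 ± 0.88 for X2 (SE from edgeR, adjusted p = 0.9999 for both). The sources used here do not say how reads were divided between such variants.

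Krt19 (chromosome 11, 100140810 to 100145926), the smallest type I keratin of simple epithelia, was the most abundant of the 3 keratins. It had 48.0 and 37.6 CPM in Dnmt3l-KO and 37.0 and 47.8 CPM in WT. The 2 genotypes covered the same range, and the log2 fold change was 0.01 ± 0.19 (SE from edgeR, adjusted p = 0.999). It was negative with either replicate 1 library left out (-0.18 for Dnmt3l-KO, -0.16 for WT). In FPKM it was 8.07 and 9.68 times the sum of Krt18 and Krt8 in Dnmt3l-KO and 4.65 and 7.85 times in WT.

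Mesothelium, the lining of body cavities, also makes these keratins. The summed level of 8 mesothelial markers, Krt7 among them, none at 0 and 6 tested, was 33.5 and 29.3 CPM in Dnmt3l-KO and 26.7 and 39.4 CPM in WT. The sum had the same order of libraries within each genotype as Krt19. Krt7 had the opposite order in Dnmt3l-KO (7.75 and 12.3 CPM) and the same order in WT (11.9 and 16.6 CPM). Upk3b (85 and 19 counts) and Wt1 (35 and 21 counts) had the order of Krt19 in Dnmt3l-KO. With 18 counts each in both WT libraries they gave no order in WT. The rest of the sum came from markers not named here. The summed level of the 12 epithelial markers was 4.47 and 3.20 CPM in Dnmt3l-KO and 4.73 and 3.55 CPM in WT, the order within each genotype seen in Krt18. Of the 3 tested, Cldn4 had this order (1.18 and 0.167 CPM in Dnmt3l-KO, 1.63 and 0.839 CPM in WT). Esrp2 had it with small differences (2.58 and 2.51 CPM in Dnmt3l-KO, 2.59 and 2.23 CPM in WT). Cldn3 had 0.240 and 0.263 CPM in Dnmt3l-KO and 0.149 and 0.216 CPM in WT. These rest on 12 and 11 counts in Dnmt3l-KO and 7 and 9 counts in WT, too few to give an order. The part of these cells in the keratin levels was not tested.

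Lmna (chromosome 3, 88481148 to 88509932), which encodes the A-type lamins, had 809 and 899 CPM in Dnmt3l-KO and 728 and 915 CPM in WT. Both Dnmt3l-KO libraries lay between the WT libraries, and the log2 fold change was 0.06 ± 0.15 (SE from edgeR, adjusted p = 0.999), with a fold interval of 0.793 to 1.36. It was negative with Dnmt3l-KO replicate 2 (-0.02) or WT replicate 1 (-0.10) left out. Lmnb1 (chromosome 18, 56707813 to 56753424), a B-type lamin gene whose product stays bound to the membrane by a farnesyl group, had 31.3 and 32.9 CPM in Dnmt3l-KO and 30.3 and 33.2 CPM in WT. The groups overlapped, and the log2 fold change of 0.02 ± 0.10 (SE from edgeR, adjusted p = 0.999) had the smallest standard error among the members. Leaving out the same libraries as for Lmna turned its sign (-0.02 and -0.05). Lmnb2 (chromosome 10, 80901363 to 80918245), the other B-type gene, had 16.53 and 19.03 CPM in Dnmt3l-KO and 18.3 and 19.8 CPM in WT, with overlapping groups and a log2 fold change of -0.10 ± 0.12 (SE from edgeR, adjusted p = 0.999). It was -0.0036 without Dnmt3l-KO replicate 1 and -0.21 without Dnmt3l-KO replicate 2.

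The balance of A-type over B-type lamin RNA in Dnmt3l-KO lay within the range of the WT libraries. The ratio of Lmna to the sum of Lmnb1 and Lmnb2 in FPKM was 18.85 and 18.98 in Dnmt3l-KO and 16.5 and 19.1 in WT, and Lmnb1 exceeded Lmnb2 by 2.54 and 2.28 times in Dnmt3l-KO and 2.204 and 2.189 times in WT. Loss of Lmnb1 is known from senescent fibroblasts. The 10 proliferation markers, all tested and none passing, had a summed level of 675 and 882 CPM in Dnmt3l-KO and 815 and 938 CPM in WT. Their fold changes were negative in 9 and positive in 1, where 7185 of all 14760 genes were negative. The Dnmt3l-KO range lay wholly below the WT range in 3 of the 10, Pcna, Cdk1 and Ccnb1, and wholly above it in 0. Among all genes 16.5% lay below and 16.2% above. The 8 senescence checkpoint genes, also all tested with none passing, had a summed level of 912 and 866 CPM in Dnmt3l-KO and 848 and 844 CPM in WT. Of these 8, 5 had a positive and 3 a negative fold change. Cdkn1a made up 458 and 359 CPM of the sum in Dnmt3l-KO and 378 and 361 CPM in WT, with overlap. Trp53 lay wholly higher in Dnmt3l-KO, as 16.2% of all genes did. Hmgb1 lay wholly lower (164 and 181 CPM in Dnmt3l-KO, 186 and 205 CPM in WT), as 16.5% did. The part of proliferation or senescence in the level of Lmnb1 was not tested.

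Lmna is read as several products, and short coding stretches in which they differ are printed to show where the products part. Lamin C2, a short A-type lamin known from meiotic cells of rodents, begins in its own exon inside the first intron of the gene, while lamin A and lamin C begin in a shared exon 1 and part ways at exon 10. In the first pair capitals mark the last 20 coding bases before exon 2 (lower case, chr3:88488402-88488431), and in the second pair the next 21 bases, which in lamin C run to its stop codon, after the shared part of exon 10 (lower case, chr3:88483318-88483347). All 4 are on the minus strand, from GENCODE transcripts of GRCm38 matched to the RefSeq accessions.
Lamin C2, own exon, chr3:88493237-88493256: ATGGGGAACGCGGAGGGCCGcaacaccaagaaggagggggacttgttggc
Lamin A and C, end of exon 1, chr3:88502748-88502767: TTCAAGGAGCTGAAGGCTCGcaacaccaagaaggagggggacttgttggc
Lamin C, end of coding sequence, chr3:88483297-88483317: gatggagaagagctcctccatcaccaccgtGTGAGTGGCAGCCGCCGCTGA
Lamin A, exon 11, chr3:88482592-88482612: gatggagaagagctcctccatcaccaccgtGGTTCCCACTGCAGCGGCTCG

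The coding sequences encode 665 residues for lamin A, 574 for lamin C and 462 for lamin C2. Of 1536 bases in the lamin C2 transcript only 76 are in neither of the other transcripts, against 1248 of 3156 in lamin A and 1 of 2021 in lamin C. Lamin C is thus told from lamin C2 by its first exon and from lamin A by a stretch of 112 bases of exon 10 that it shares with lamin C2.

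Lamin A had 120.9 and 151.5 FPKM in Dnmt3l-KO and 108.5 and 147.1 FPKM in WT. Lamin C had 93.9 and 101.2 FPKM in Dnmt3l-KO and 79.9 and 145.7 FPKM in WT, where the WT libraries lay far apart. For both of these products the groups overlapped.

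Lamin C2 had 64.9 and 58.8 FPKM in Dnmt3l-KO and 41.05 and 28.14 FPKM in WT. Both Dnmt3l-KO libraries lay above both WT libraries. Among all genes the CPM ranges of the genotypes did not overlap in 32.7%. That share is for CPM summed per gene, not FPKM per transcript, and the share among all transcripts was not computed. The log2 fold change of lamin C2 in the transcript fit was 0.78 ± 0.26 (SE from edgeR, unadjusted p = 0.0329). This p was the smallest among the 14 member transcripts tested. The share of all transcripts with an unadjusted p under 0.05 was not computed. Lamin C2 did not pass after adjustment over all transcripts (adjusted p = 0.9999), in a fit in which 0.00252% of transcripts passed. The authors' deposited table gives the lamin C2 transcript a log2 fold change of 0.67 and an adjusted p of 0.397, and none of the 12 member transcripts with an adjusted p in the authors' deposited table is under 0.05. Lamin C and lamin C2 added together had 158.8 and 160.0 FPKM in Dnmt3l-KO and 121.0 and 173.9 FPKM in WT, where the groups overlap. The predicted variant X1 had 15.7 and 19.6 FPKM in Dnmt3l-KO and 14.9 and 13.2 FPKM in WT, also without overlap.

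**Figure D4:**
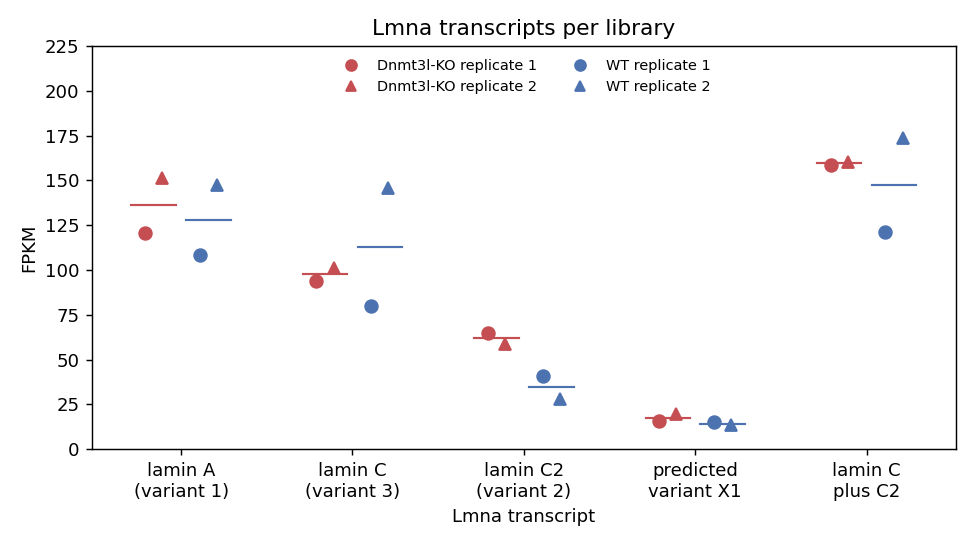
FPKM of the Lmna transcripts in the 2 Dnmt3l-KO libraries (red, left) and the 2 WT libraries (blue, right), with circles for replicate 1, triangles for replicate 2 and bars for the group means. Lamin C2 averages 61.9 FPKM in Dnmt3l-KO and 34.6 FPKM in WT without overlap, whereas the sum of lamin C and lamin C2 averages 159.4 FPKM in Dnmt3l-KO and 147.4 FPKM in WT with overlap. Variant X1 averages 17.7 FPKM in Dnmt3l-KO and 14.1 FPKM in WT, also without overlap.

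The related genes showed no passing member either. Of 42 other intermediate filament genes, 14 had 0 counts in all libraries, among them the basal epidermal pair Krt5 and Krt14, 19 were too low to test and 9 were tested. Neither edgeR nor DESeq2 called any of the 9 (0 each), and 0 had an unadjusted edgeR p under 0.05. Their median log2 fold change was 0.06, with 7 positive values and 2 negative ones, Krt7 and Krt80. Krt7, the type II keratin with the highest level of this list, had 4.22 and 6.94 FPKM in Dnmt3l-KO and 6.11 and 9.56 FPKM in WT, far above Krt8. Its log2 fold change was -0.51 ± 0.29, that of Krt80 was -0.17 ± 0.23 and that of Krt20 was 0.28 ± 0.44 (SE from edgeR, adjusted p = 0.999 for each). For Krt7 the value was -0.21 without Dnmt3l-KO replicate 1 and -0.88 without Dnmt3l-KO replicate 2.

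Plakins and other linkers attach filaments to each other, to actin and to junctions. Of 15 such genes, all tested, edgeR and DESeq2 called 0, and 1 had an unadjusted p under 0.05. The Dnmt3l-KO range lay wholly above the WT range in 4 of the 15 and wholly below it in 0 of the 15, where 16.2% of all genes lay above and 16.5% below. Their median log2 fold change was 0.05, with 9 positive and 6 negative values. Plec, which encodes plectin, the linker of vimentin to other cell structures, had 1889 and 1739 CPM in Dnmt3l-KO and 1408 and 1449 CPM in WT. Its groups did not overlap, and its log2 fold change was 0.35 ± 0.11 (SE from edgeR, unadjusted p = 0.0293, adjusted p = 0.999). Dsp, which encodes desmoplakin, the linker at desmosomes, had a log2 fold change of 0.35 ± 0.15, and Tchp, whose product binds keratin filaments, one of 0.50 ± 0.27 (SE from edgeR, adjusted p = 0.999 for both). Flna, an actin crosslinker and the gene of highest level in the list, had 560.4 and 499 FPKM in Dnmt3l-KO and 501 and 536 FPKM in WT.

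Of 17 lamina partners and components of the LINC complex, which joins the lamina to the cytoskeleton, 0 passed in edgeR or DESeq2, and 0 had an unadjusted p under 0.05. Their log2 fold changes lay between -0.23 and 0.15 with a median of -0.01, 8 positive and 9 negative. Lbr, the receptor that holds B-type lamins and heterochromatin at the inner membrane, had 49.3 and 59.5 CPM in Dnmt3l-KO and 59.3 and 67.8 CPM in WT (log2 fold change -0.23 ± 0.14). Tmpo, which encodes the lamina-associated LAP2 proteins, had a log2 fold change of -0.18 ± 0.11, and Tor1aip1, which encodes LAP1, one of 0.12 ± 0.09 (SE from edgeR, adjusted p = 0.999 for all 3). Banf1, a DNA-binding protein of the envelope and the gene of highest level here, had 62.6 and 71.1 FPKM in Dnmt3l-KO and 61.3 and 66.4 FPKM in WT.

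Prelamin A is farnesylated and then cut to yield mature lamin A. Of 6 genes of this route edgeR and DESeq2 called 0, and 0 reached an unadjusted edgeR p of 0.05. The median log2 fold change was 0.00, with 4 positive and 2 negative values. Fnta and Fntb, the subunits of farnesyltransferase, had log2 fold changes of -0.10 ± 0.09 and 0.17 ± 0.14, and Rce1, a protease that trims the farnesylated end, one of 0.11 ± 0.12 (SE from edgeR, adjusted p = 0.999 for all 3).

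**Figure D5:**
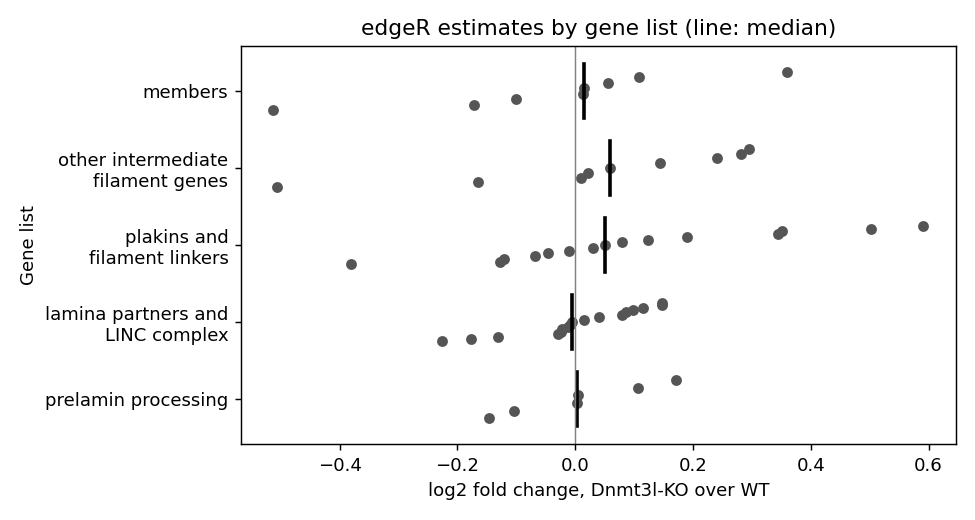
Log2 fold changes, Dnmt3l-KO over WT, of the tested genes in each list (points, one per gene) with the list median (line). The prelamin processing genes lie between -0.15 and 0.17, the lamina partners between -0.23 and 0.15, and the plakins and linkers between -0.38 and 0.59.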

How the data were processed

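The authors deposited an estimated count and an FPKM value per RefSeq transcript and library, per the file headers, and their own comparison (per transcript a p-value, raw and adjusted, a score, a log2 fold change with its error and a mean signal). The submitters' processing notes name DESeq2 1.8.0, eXpress 1.4.1, Cufflinks 2.2.1 and TopHat2 2.0.12 with build mm10, without their roles. The counts were whole, so no rounding was needed. The sources used here do not say how reads shared by transcripts or gene copies were split.

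Counts and FPKM were summed per symbol, the last bracketed word before a comma in each description. Dnmt3l-KO minus WT was tested with edgeR 4.0.16 in R 4.3.3 (robust quasi-likelihood F-test, TMM, edgeR's expression filter, Benjamini-Hochberg threshold 0.05), which was checked on simulated counts. Standard errors come from the F statistic. Total counts were 40681328 to 51465395 per library, and a count of 3 equals 0.0583 to 0.0737 CPM. Alternatives used DESeq2 1.42.0, limma 3.58.1 and other settings. The members and the gene lists were chosen with earlier results of these data known. Beside the members, the genes named were, from each related list, the 3 with the smallest p and the 1 with the highest FPKM. Cell type, proliferation and senescence lists are given as sums, and for these lists some genes picked by the same rule are named beside them. Krt5, Krt14, Pdgfra, Acta1 and genes at 0 were named after their values were seen.

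Copies were searched with BLAST 2.17.0 in GENCODE transcripts of GRCm38, the build of mm10. The pseudogene Krt8-ps (98.6% identical over 941 bases to Krt8), Gm5200 (90.2% over 1269 bases to Krt18) and Gm21009 (84.7% over 1697 bases to Lmnb2) were not analysed here, and reads from them could have been counted for these genes.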

Additional observations from a re-analysis of the deposited data

How the results depend on the processing

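With 2 libraries per genotype the precision is that of the intervals given, and p-values above the threshold do not show that levels were equal. The count of 0 called members was the same under every alternative run. The count of genes called among all genes was 3 in edgeR, 8 with no filter, 31 in DESeq2, 6 and 9 in limma on log2 FPKM (pseudocounts 1 and 0.1), 1 with transcripts as features and 2 to 6 with 1 library left out (6 without Dnmt3l-KO replicate 1, 5 without replicate 2, 2 and 4 without WT replicates 1 and 2). With the replicate number as a block it was 4. Differences between replicates correlated by 0.15 between the genotypes over 14760 genes, and the labels give no shared origin for the numbers, so no pairing was assumed. Of 112 member values under alternatives, 102 kept their sign and their side of the threshold, 10 changed sign and 0 gained a call. Of the 10, 9 came from leaving out 1 library, and the other was Lmnb1 as its most abundant transcript (-0.0834). With 1 library left out, log2 fold changes ranged from 0.06 to 0.16 for Vim, -0.0639 to 0.68 for Des, -0.74 to 0.23 for Nes, -0.18 to 0.21 for Krt19, -0.10 to 0.23 for Lmna, -0.0514 to 0.084 for Lmnb1, -0.21 to -0.0036 for Lmnb2 and -0.85 to -0.25 for Krt18. The ranges were -0.88 to -0.21 for Krt7, -0.36 to 0.0513 for Krt80, -0.29 to 0.69 for Krt20, -0.13 to 0.10 for Flna and -0.0644 to 0.0484 for Banf1. On log2 FPKM with pseudocounts of 1 and 0.1, Flna was at 0.029 and 0.029 and Banf1 at 0.064 and 0.0649 in limma, against -0.01 in edgeR for each. A fit with 1 library in a genotype assumes that it varies like the other genotype. Summing members with copies named after them was not run, as no such symbol was found.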
